A study of Mus musculus with 2 samples.

Results

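The histone genes and histone variants were described in RAW264.7, a leukaemic macrophage cell line of the mouse. Members were the rows of the deposited count table whose symbol names a canonical histone gene (H1f, H2ac, H2bc, H3c or H4c with a number) or 1 of the variants H2ax, H2az1, H2az2, H3f3a, H3f3b, Macroh2a1 and Macroh2a2. This gave 79 of 56791 genes. For the comparison, 67 were taken as replication-dependent genes and 12 as variants, the latter including the linker histones H1f0, H1f7, H1f8, H1f9 and H1f10. Both cultures were wild type and received 20 ng of mouse recombinant IL-4 for 24 h (the labels' protocol is read as meaning both) to induce M2 polarization, the alternative activation state of macrophages. One culture also received 10000000 particles of a preparation named FAPD10-exos, and the other vehicle. The study asked what FAPD10-exos does in M2 polarization. Each group was 1 library of 1 cell line, called the FAPD10-exos (or treated) and the vehicle library, so no difference below has a replicate check and no p-value was computed.

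Histones package DNA into nucleosomes, each a core of H2A, H2B, H3 and H4 that linker histone H1 closes off. Replication-dependent histone genes lie in clusters, are transcribed mainly in S phase to coat new DNA, and give mRNAs that end in a conserved stem-loop instead of a poly(A) tail. Variant genes lie elsewhere, mostly give spliced and polyadenylated mRNAs throughout the cell cycle, and supply the histones that are exchanged outside replication.

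The stem-loop is printed here because, in the mRNAs that end at it, it marks an end without a poly(A) tail. In GENCODE M21 transcripts, the 16-base histone stem-loop consensus was searched on the sense strand in the longest coding model of the 74 members that could be matched by symbol. It was present in 40 of 63 replication-dependent genes (63.5%) and in 1 of 11 variants, H2ax, against 0.0952% of 58797 protein-coding transcripts. No match says only that these letters are not in the annotated model. In 19 of the 40 replication-dependent genes the model ran over 100 bases past the stem-loop. Of the members printed below, H1f2, H2ax and H4c9 had 840, 822 and 330 bases after it, so their models do not end there. The members H2bc27, H2ac25, H1f9, H2bc24 and H4c16 were not matched. The lines give 26 bases of 6 members, 5′ to 3′, with the stem-loop in capitals.
H1f2: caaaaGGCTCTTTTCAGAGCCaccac
H2ac19: aaaaaGGCTCTTTTCAGAGCCaccca
H2ac20: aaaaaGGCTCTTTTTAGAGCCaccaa
H3c2: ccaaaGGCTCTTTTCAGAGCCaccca
H4c9: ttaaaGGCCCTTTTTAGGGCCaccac
H2ax: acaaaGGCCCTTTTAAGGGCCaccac
H1f2 is shown as the replication-dependent member with the most counts, H2ac19 as the one with the largest ratio among the better detected ones, and H2ax as the only variant with the element. H2ac20 shows it in another H2A gene, and H3c2 and H4c9 in the types H3 and H4. The form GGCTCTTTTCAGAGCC was shared by 23 members of the H1, H2A, H2B and H3 types, and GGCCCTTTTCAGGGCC by 6 members, all of type H4.

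Nearly all histone reads came from the variants. The 67 replication-dependent genes together had 891 counts with FAPD10-exos and 561 with vehicle, which is 0.00240% and 0.00155% of all counts. The 12 variants had 34458 and 27829 counts, or 0.0926% and 0.0770%. Variants thus held 97.5% of the histone counts with FAPD10-exos and 98.0% with vehicle. The libraries held 37196241 and 36152743 counts, and levels are given as CPM, counts per 1000000 of the effective library size after TMM scaling, where 1 CPM is 35.6 counts with FAPD10-exos and 37.8 with vehicle.

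Among replication-dependent genes, 30 of 67 had 0 counts in both libraries. This allows up to 3 counts each, or 0.0843 CPM with FAPD10-exos and 0.0794 CPM with vehicle, and more if both ends of read pairs were counted. The core types H3 and H4 were the emptiest. The 12 H3 genes had 4 counts with FAPD10-exos and 2 with vehicle in all, and the 13 H4 genes had 20 and 15. The 18 H2B genes had 109 and 64 counts, the 18 H2A genes 308 and 150, and the 6 H1 genes 450 and 330. H1, the linker type, therefore supplied the most counts with the fewest genes. A single gene, H1f2, gave 379 and 279 of the H1 counts.

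**Figure D1:**
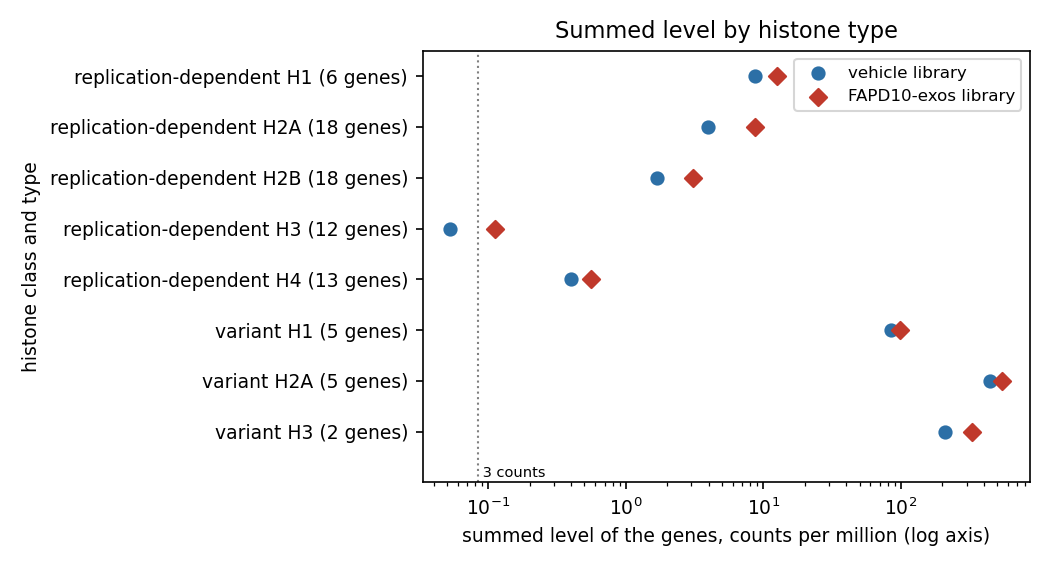
Summed level of the members by class and histone type, in CPM on a log axis, with 1 point per library and the number of genes in parentheses. The dotted line is 3 counts in the treated library. The 12 replication-dependent H3 genes sum to 0.112 CPM with FAPD10-exos and 0.0529 CPM with vehicle, whereas the 2 variant H3 genes sum to 326 and 208 CPM.

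The kind of RNA sequenced bears on these low counts. Per the labels the RNA was total RNA, the series' design text speaks of mRNA, and no source used here says whether poly(A) RNA was selected. Rn7sk, Rmrp and Rpph1, transcripts of RNA polymerase III that carry no poly(A) tail, had 2 and 4 counts (Rn7sk) or 0 in both libraries (Rmrp and Rpph1). Malat1, a nuclear RNA whose mature end carries no poly(A) tail either, had 96231 and 86205 counts, or 2704 and 2281 CPM. Terc, the telomerase RNA, which carries no poly(A) tail either, had 0 counts in both libraries. All of these RNAs were picked with their values known. A polyadenylation hexamer, AATAAA or ATTAAA, was present in the last 40 bases of the annotated model of 13 of 63 replication-dependent genes (20.6%) and of 8 of 11 variants (72.7%), against 48.7% of protein-coding transcripts. The 13 genes held 449 of the 891 counts with FAPD10-exos and 325 of the 561 with vehicle, most of them from H1f2, whose model runs 840 bases past its stem-loop. The part of poly(A) selection in the low counts was not tested.

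Sequence shared between copies is a further limit of these counts. Windows of 50 bases were looked up in all other GENCODE M21 genes. In 51 of the 63 replication-dependent genes, over 20% of the windows were also found in another gene. How reads that match several places were counted is not stated. The 51 genes held 403 treated and 203 vehicle counts, and 25 of them had 0 in both libraries. The other 12 held 454 and 332 counts, of which H1f2 gave 379 and 279. Of these 12, 4 had 0 counts in both libraries, namely H1f6, H2ac6, H4c3 and H4c4 (named after their values were seen). H1f6 is the testis linker histone, and H2ac6, H4c3 and H4c4 had 14.1%, 19.6% and 10.2% of their windows in other genes. Among the variants, H2az1 had 69.6% of its windows in other genes and 15000 counts over both libraries together. The part of shared sequence in the counts was not tested.

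**Figure D2:**
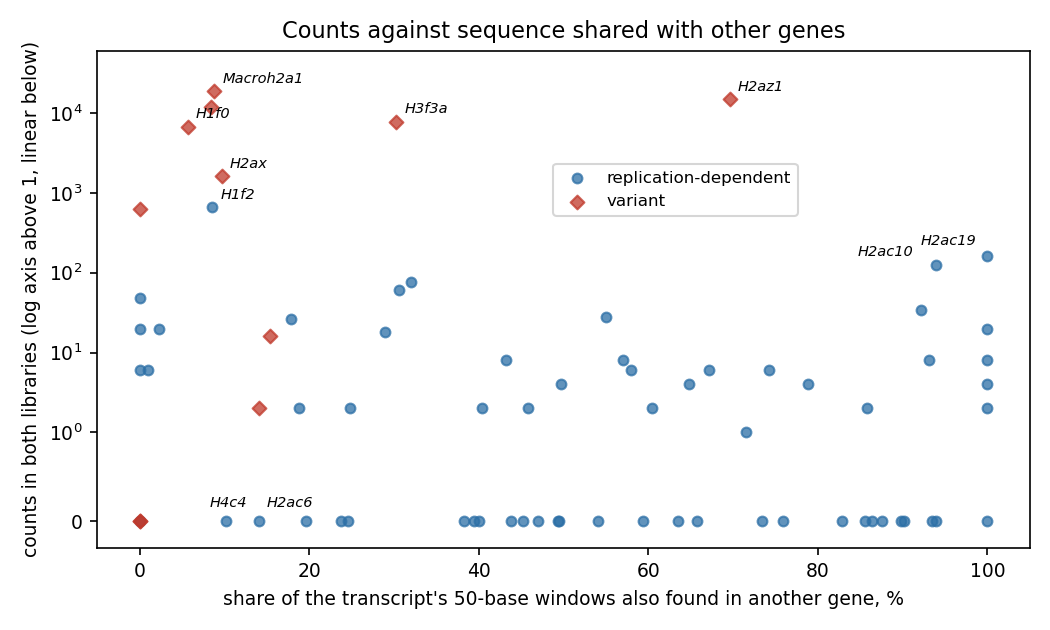
Counts of both libraries together (log axis above 1, linear below) against the percent of 50-base windows of the annotated transcript that also occur in another gene, 1 point per member with a matched transcript. Replication-dependent members with 0 counts lie along the whole horizontal axis, and H2az1 lies high at 69.6%.

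Per kilobase of exon, the order of the members was led by variants. H2az1, which encodes H2A.Z, stood first at 139 CPM per kb with FAPD10-exos and 92.5 with vehicle. H3f3b, 1 of 2 genes for the replacement histone H3.3, followed at 64.1 and 43.7, and H1f0, the linker histone of slowly dividing and differentiated cells, at 47.9 and 41.2. Macroh2a1, whose product carries a large non-histone macro domain, stood at 38.3 and 37.1 CPM per kb, H3f3a, the second H3.3 gene, at 38.7 and 22.4, and H2ax, the variant phosphorylated at DNA breaks, at 17.4 and 14.7. The order of H1f0 and H3f3b was the same in both libraries, whereas Macroh2a1 was above H3f3a in the vehicle and level with it in the treated library. H1f2, the first replication-dependent gene, stood at 6.83 and 4.73 CPM per kb and H2az2, the second H2A.Z gene, at 6.92 and 3.73. H2ac19 and H2ac10 stood at 6.17 and 5.78 in the treated and 2.41 and 2.92 in the vehicle library. All other members were below 2 CPM per kb in both libraries.

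**Figure D3:**
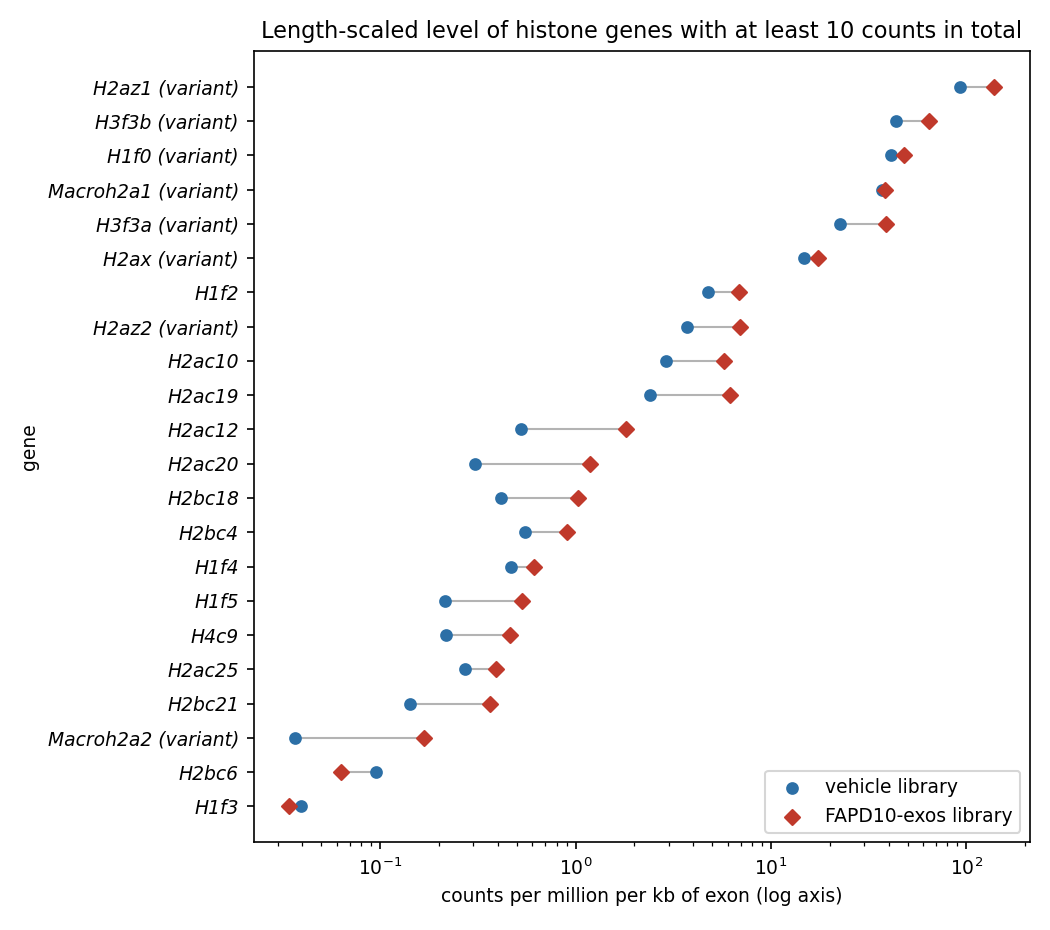
Length-scaled level, in CPM per kb of exon on a log axis, of each member with at least 10 counts in both libraries together. Circles are the vehicle and diamonds the FAPD10-exos library. H2az1 leads at 92.5 and 139, and H2bc6 and H1f3 are the members with the lower value in the treated library.

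Ratios below are treated over vehicle, with a 95% Clopper-Pearson interval of the counting error in parentheses. It was computed on halved counts, because 76.3% of genes with 1 to 50 counts in the treated library and 75.1% in the vehicle library had an even number, so both ends of a read pair seem to have been counted. A gene is measured when its mean level reaches 1 CPM. A measured gene was called higher or lower if the change reached 1.5-fold and the interval left out 1. Of 12264 measured genes, 16.2% were higher and 18.8% lower by this rule. Higher genes were 46.3% of those called, and 31.5% under scaling by total counts, which shifted the median of all measured genes by -0.13 in log2. In bulk RNA, fewer cells of a kind and less RNA per cell cannot be told apart.

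Among the 7 measured variants, 3 were higher in the treated library, H3f3a, H2az2 and H2az1, and 0 were lower. The median log2 ratio of the 7 was 0.55, against 0.01 over all measured genes. H3f3a had 4823 counts with FAPD10-exos and 2968 with vehicle, or 136 and 78.5 CPM, a ratio of 1.73 (1.62 to 1.84), with 30.3% of its windows in other genes. H3f3b, which encodes the same H3.3 protein, had 6792 and 4910 counts, or 191 and 130 CPM. Its ratio of 1.47 (1.39 to 1.55) was just under the threshold. Both H3.3 genes were thus at higher values in the treated library, and together they had a ratio of 1.57 (1.504 to 1.63). Per kilobase, H3f3b was 1.95 times H3f3a in the vehicle and 1.66 times in the treated library. That ratio between both genes, which no scaling of the libraries can alter, was 1.17 times as large in the vehicle library (1.08 to 1.28).

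The H2A.Z genes, whose product marks promoters and enhancers, were both called higher, though neither was once corrected for exon length, at 0.17 in log2 for H2az1 and 0.49 for H2az2. H2az2 had 402 counts with FAPD10-exos and 230 with vehicle, or 11.3 and 6.09 CPM, a ratio of 1.86 (1.47 to 2.36). H2az1 had 8794 and 6206 counts, or 247 and 164 CPM, and a ratio of 1.505 (1.44 to 1.58) at the threshold itself. Under scaling by total counts or by median of ratios H2az1 was no longer past it, at log2 ratios of 0.46 and 0.55. With 69.6% of its windows in other genes, its value is uncertain. H2az2 is below a filter of 10 CPM and not called with it. H2az1 exceeded H2az2 per kilobase by 24.8 times in the vehicle and 20.1 times in the treated library, and the interval of the change between these, 0.971 to 1.57, included 1.

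The remaining measured variants lay between the thresholds. H2ax had 855 and 770 counts, or 24.0 and 20.4 CPM, a ratio of 1.18 (1.03 to 1.36). H1f0 had 3502 and 3196 counts, or 98.4 and 84.6 CPM, a ratio of 1.16 (1.09 to 1.25). Macroh2a1 had 9277 and 9544 counts, or 261 and 253 CPM, and a ratio of 1.03 (0.991 to 1.08). It was the measured variant closest to equal levels, and its log2 ratio was 0.05, or -0.08 under scaling by total counts. Its paralog Macroh2a2 had 13 counts with FAPD10-exos and 3 with vehicle, under 1 CPM, with an interval from 0.733 to 75.7. H1f10, a linker histone outside the clusters, had 0 and 2 counts. H1f7, H1f8 and H1f9, the first and last known from sperm cells and the second from oocytes, had 0 in both libraries.

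Of the 4 measured replication-dependent genes, H2ac19 and H2ac10 were higher and 0 were lower, beside the background of 16.2% and 18.8%. The median log2 ratio of the 4 was 0.76. H2ac19 had 116 counts with FAPD10-exos and 48 with vehicle, or 3.26 and 1.27 CPM, a ratio of 2.57 (1.57 to 4.32). It is 1 of 2 near-identical H2A genes on chromosome 3, and its copy H2ac18 had 2 and 6 counts. All 50-base windows of both occur in other genes and all of their exon length overlaps other genes of the table, so the division of reads between them is uncertain. H2ac10 had 82 and 44 counts, or 2.30 and 1.16 CPM, a ratio of 1.98 (1.15 to 3.49). It shares 94.0% of its windows with other genes and 35.3% of its exon length with a predicted gene, so its value is uncertain too. Without members that overlap other genes by over 20%, 0 replication-dependent genes were called, and H1f2 was the only one left that was measured.

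The linker histone genes of this class lie in the cluster on chromosome 13. H1f2, which encodes the common linker H1.2, had 379 counts with FAPD10-exos and 279 with vehicle, or 10.7 and 7.38 CPM, a ratio of 1.44 (1.15 to 1.81), between the thresholds. H1f4, the gene of H1.4, had 42 and 34 counts and a ratio of 1.31 (0.659 to 2.65). H1f5 had 14 and 6, H1f3 9 and 11, and H1f1 6 and 0 counts. With H1f1 set against 3 vehicle counts, it was 2.12-fold higher by point value, and less if both ends of read pairs were counted. Its counting interval started at 0.439, below 1. H1f0 stood at 8.70 times the level of H1f2 per kilobase in the vehicle library and at 7.01 times in the treated library. The interval of the change between these, 0.98 to 1.57, included 1.

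**Figure D4:**
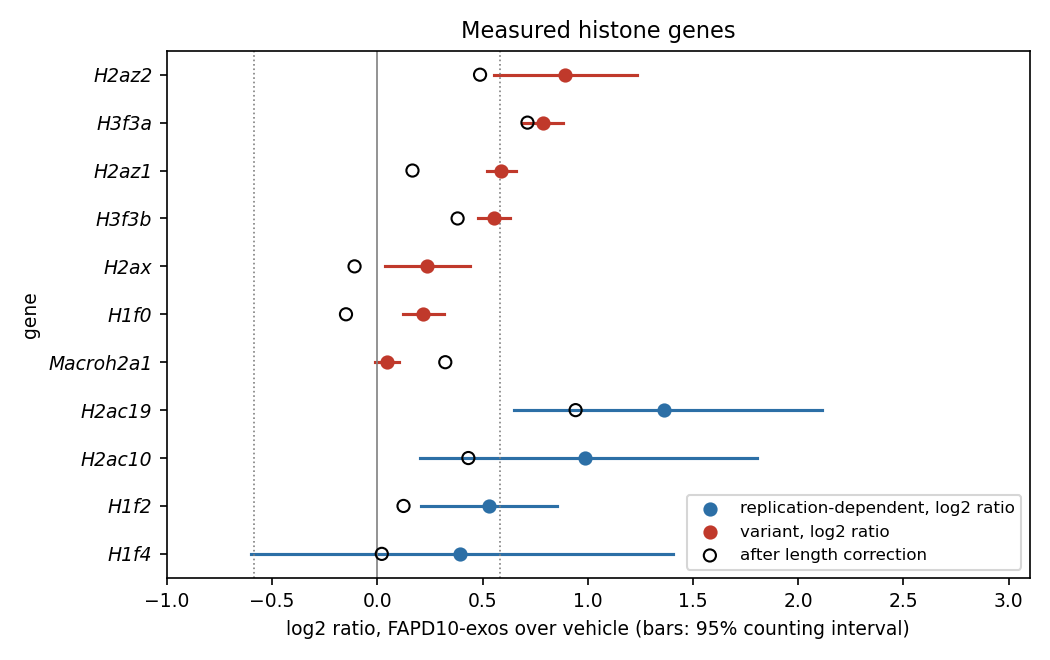
Log2 ratio (FAPD10-exos over vehicle) of the 11 measured members with 95% counting intervals, and the same after correction for exon length (open circles). Dotted lines mark 1.5-fold. Filled points of all 11 lie right of 0 under TMM scaling, Macroh2a1 the closest at 0.05 (-0.08 when scaled by total counts); once corrected for length, H1f0 and H2ax lie left of it.

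Of the 14 replication-dependent H2A genes with a count, 12 had the higher CPM in the treated library, and so had 7 of 9 H2B genes, most of them below 1 CPM and so not called. Of these, 3 H2A genes and 1 H2B gene had equal counts, and scaling by total counts turned them, which left 9 of 14 and 6 of 9. Over all 12264 measured genes, 6225 had the higher CPM in the treated library, or 5292 under scaling by total counts. Measured genes of 57 to 1030 bases had a median log2 ratio of 0.44. H2ac12 had 26 and 8 counts with an interval of 1.07 to 14.5, H2ac20 22 and 6 with 1.03 to 21.7, and H2bc21 34 and 14 with 1.02 to 7.36. These 3 are the ones that would be called without the filter, a setting with no background given here. H2bc21, H2bc4, at 37 and 24 counts, and H2bc6, at 10 and 16, were the H2B genes with the most counts, followed by H2bc18 at 14 and 6. H2bc12 had 6 and 0. Among H4 genes H4c9 led with 12 and 6 counts, and H4c1 and H4c8 had 2 and 0 and H4c14 2 and 4. Of the H3 genes only H3c2 and H3c14, at 2 and 0, and H3c4, at 0 and 2, had a count in either library.

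Summed over all 67 genes without a filter, the replication-dependent class stood at 25.0 CPM with FAPD10-exos and 14.8 CPM with vehicle, a ratio of 1.69 (1.45 to 1.97). The variants summed to 968 and 736 CPM, a ratio of 1.32 (1.29 to 1.34). Of the 37 replication-dependent genes with a count, 28 had the higher CPM in the treated library and 9 in the vehicle library. Under scaling by total counts it was 24 and 13, since 4 had equal counts. Over all 12264 measured genes it was 6225 and 6039, or 5292 and 6972 under scaling by total counts. The class had a median exon length of 539 bases, and measured genes of 57 to 1030 bases had a median log2 ratio of 0.44. For each 100 variant counts there were 2.59 replication-dependent counts with FAPD10-exos and 2.02 with vehicle, a ratio of 1.28 (1.10 to 1.502) that does not depend on scaling. That ratio was not corrected for exon length. Macroh2a1, at a ratio of 1.03 and with 6809 exon bases, gave 9277 of the 34458 variant counts with FAPD10-exos. With vehicle it gave 9544 of 27829. The ratio per 100 variant counts was not computed without Macroh2a1. Without that gene the pooled log2 ratio of the variants, given in the last section, lay closer to that of the replication-dependent class. The ratio of 1.28 thus rests in part on Macroh2a1. Without the replication-dependent H1 genes, the core types gave 1.28 and 0.830 counts per 100 variant counts, a ratio of 1.54 (1.22 to 1.94). The linker histone H1f0 was still among the variant counts. The 54 genes on chromosome 13 had a pooled ratio of 1.57 (1.32 to 1.87) and the 10 on chromosome 3 one of 2.40 (1.66 to 3.52). Over the 12 genes with mostly unique sequence the pooled log2 ratio of the replication-dependent class was 0.54, against 0.75 over all of it. For the variants it was 0.25 in the 9 with mostly unique sequence, a set without H2az1 and H3f3a, against 0.40 over all of them.

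Exon length moved with the ratio in these libraries, and histone genes are short. Over the 12264 measured genes Spearman's rho of the log2 ratio with exon length was -0.45, a description across genes that are no replicates. The 10% shortest genes, of 57 to 1030 bases, had a median of 0.44 in log2, and the 10% longest, from 9472 bases, one of -0.62. Replication-dependent members had a median length of 539 and variants of 1705 bases. After subtraction of the median of genes of like length, 1 variant and 1 replication-dependent gene were still called, H3f3a at 0.71 and H2ac19 at 0.94 in log2. The share of all measured genes called after this correction is not given here. Counts called after it, here and below, thus have no background beside them. H3f3b then stood at 0.38, Macroh2a1 at 0.32, H2ax at -0.11 and H1f0 at -0.15. H2ac10 stood at 0.43, H1f2 at 0.12 and H1f4 at 0.02. The medians were 0.32 for the variants and 0.28 for the replication-dependent class, so the order of both classes by median, 0.55 and 0.76 before, was turned.

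**Figure D5:**
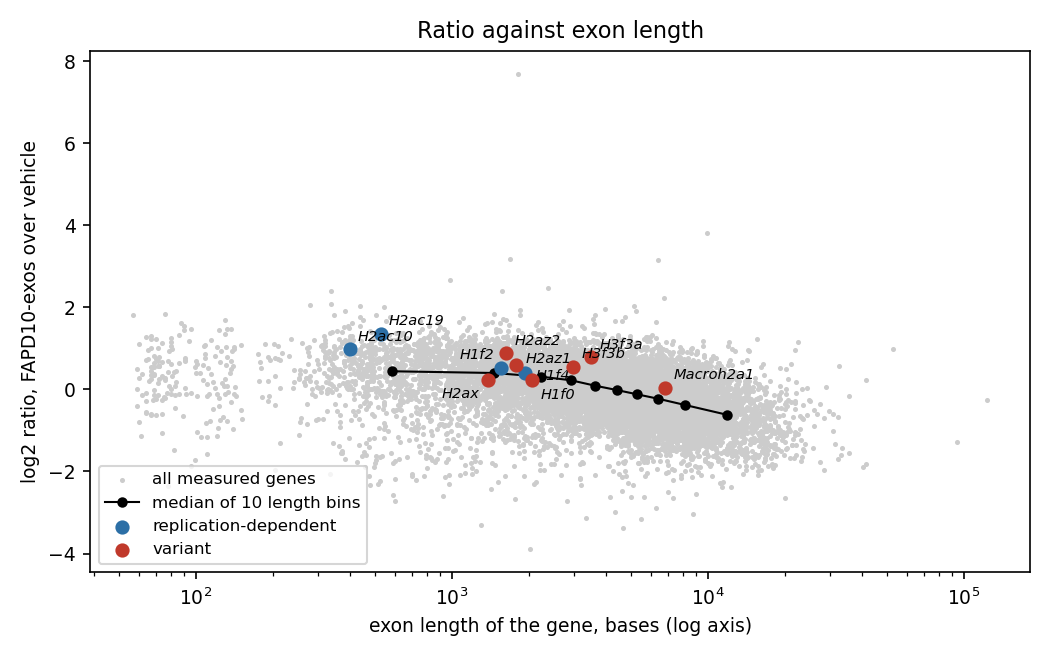
Log2 ratio (FAPD10-exos over vehicle) against exon length in bases on a log axis for all 12264 measured genes (grey), the medians of 10 bins of equal size (black line) and the 11 measured members. The line runs from 0.44 in the shortest to -0.62 in the longest bin, H3f3a and H2ac19 lie above it, and H1f0 and H2ax lie slightly below it.

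Genes that make and place histones were fixed as lists, again with earlier results of these data known. In histone mRNA processing, 6 of 26 measured genes were higher (23.1%) and 3 lower (11.5%), against 16.2% and 18.8% of all measured genes, and the median was 0.30 in log2. After the length correction 5 were higher and 1 lower. The higher ones were led by Snrpf and Snrpg, core proteins that the U7 particle shares with the spliceosome. Snrpf had 908 and 417 CPM, a ratio of 2.18 (2.12 to 2.24), but is uncertain, since 85.4% of its exon length lies in other genes. Snrpg had 6.66 and 3.23 CPM, a ratio of 2.06 (1.503 to 2.86). Slbp, which binds the stem-loop printed above, had 6174 and 7365 counts, or 174 and 195 CPM, and a ratio of 0.890 (0.848 to 0.934), between the thresholds. Casp8ap2 and Npat, both of the histone locus body where these mRNAs are made, were lower, at 56.1 against 114 CPM, 2.04-fold (1.89 to 2.20), and at 20.7 against 31.6 CPM, 1.53-fold (1.34 to 1.75). Both are long genes, and after the length correction they stood at -0.72 and -0.42 in log2. Lsm11, a subunit of the U7 particle that cuts the mRNA, had 91 and 70 counts and a ratio of 1.38 (0.869 to 2.21).

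Of 41 measured histone chaperones and loading factors, 7 were higher (17.1%) and 9 lower (21.95%), close to the 16.2% and 18.8% of all measured genes, with a median of 0.13. After the length correction 5 were higher and 7 lower. Hat1, which acetylates new H4, was 1.84-fold higher (1.74 to 1.94), and Nasp, which stores H3 and H4, had a ratio of 1.42 (1.39 to 1.44). Chaf1b and Asf1b of the replication-coupled route had ratios of 1.41 (1.22 to 1.62) and 1.16 (0.951 to 1.41). For H3.3, the loaders Hira and Daxx had ratios of 1.03 (0.93 to 1.15) and 1.12 (1.03 to 1.20), whereas Atrx, the partner of Daxx, was 3.20-fold lower (3.09 to 3.33) and at -0.77 in log2 once corrected for length. For H2A.Z, the remover Anp32e had a ratio of 1.38 (1.36 to 1.40), and Ep400, an ATPase that deposits it, was 3.11-fold lower (2.81 to 3.44) and stood at -0.96 after the correction. Of the genes in this paragraph, Hira is uncertain, since 44.7% of its exon length lies in other genes.

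Genes of S phase were well detected in both libraries, beside the few counts of replication-dependent histone genes. Of 48 measured replication genes, 11 were higher (22.9%) and 6 lower (12.5%), against 16.2% and 18.8% of all measured genes, with a median of 0.20. With the length correction 10 were higher and 5 lower. Pcna, the replication clamp, had 406 and 233 CPM and was 1.74-fold higher (1.68 to 1.81), though 20.8% of its exon length overlaps other genes. After the length correction Pcna stood at 0.48 in log2, under the threshold. Mcm5 of the replicative helicase had 279 and 266 CPM, a ratio of 1.05 (1.01 to 1.09), and Rrm2, which makes deoxynucleotides, 51.9 and 43.8 CPM, a ratio of 1.19 (1.08 to 1.30). The lowest ratio was that of Pola1, the catalytic subunit of the polymerase that starts new strands, which was 2.21-fold lower (2.05 to 2.37) at 61.5 against 136 CPM and stood at -0.70 after the length correction. Of 20 mitosis markers 2 were higher (10.0%) and 3 lower (15.0%), against the same background, with a median of -0.04, and 1 was higher and 0 lower after the length correction. The higher ones were Ube2c, of the mitotic ubiquitin ligase, at 1.84-fold (1.56 to 2.19) with 22.8% of its exon length in other genes, and Birc5, of the chromosomal passenger complex, at 1.81-fold (1.72 to 1.90). Once corrected for length, Ube2c stood at 0.57 in log2, under the threshold, and Birc5 at 0.71. Mki67, the proliferation antigen, was 1.57-fold lower (1.55 to 1.60) at 1586 against 2493 CPM, and it stood at -0.20 in log2 once corrected for length. Whether the share of cells in S phase differed between the cultures was not tested.

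Of 10 macrophage markers, 9 were measured, and the 10 summed to 2220 CPM with FAPD10-exos and 2425 CPM with vehicle. The exception was Mrc1, the mannose receptor commonly used as a marker of M2 macrophages, with 2 counts in each library, although both cultures had received IL-4. By contrast, 7 markers of fibroblasts and mesenchymal progenitors had 4 counts in each library, with Col1a1, Col1a2, Dcn, Lum and Ly6a at 0. Endothelial markers had 26 and 12 counts, muscle markers 0 and 10, and adipocyte markers 0 and 2.

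Positions are as in the deposited table, for which no mouse build is stated. The 54 replication-dependent genes on chromosome 13 lie between 21899933 and 24118834, among them H1f2 from 23922791 to 23924350 and H2ac10 from 23718076 to 23718474. The 10 on chromosome 3 lie between 96127181 and 96177448, with H2ac19 from 96147065 to 96147592. Of the variants, H2az1 lies on chromosome 3 from 137570248 to 137572683, outside that cluster, and Macroh2a1 on chromosome 13 from 56221432 to 56284174. H3f3a lies on chromosome 1 from 180628397 to 180641508, H3f3b on chromosome 11 from 115912738 to 115918788 and H2az2 on chromosome 11 from 6377229 to 6394443. H1f0 lies on chromosome 15 from 78912650 to 78914704 and H2ax on chromosome 9 from 44245991 to 44247374. H1f2, H2ac10, H2ac19, H1f0 and H2ax are single-exon genes in the table, and the others named here have several exons.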

How the data were processed

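RNA-seq counts of 2 libraries were used, 1 per group. The authors deposited whole-number counts per gene symbol, not normalised, with an exon length per gene, per the file headers in the layout of featureCounts. The submitters' processing notes name fastp 0.23.4, STAR 2.5.3a, featureCounts and GRCh38, a human build although the symbols are mouse. Annotation, strand setting and treatment of multi-mapping reads are not stated. The sample descriptions in the labels named both columns.

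Members and lists were chosen with earlier results of these data known. With 1 library per group, edgeR's quasi-likelihood test had no residual degrees of freedom. Counts were scaled by TMM (edgeR 4.0.16, R 4.3.3), the factors being 0.957 (FAPD10-exos) and 1.05 (vehicle). Where a count was 0, 0.5 was added to both counts for the point value. The length correction subtracted the median log2 ratio of measured genes in 50 bins of exon length. Transcripts were taken from GENCODE M21 through RefSeq symbols (GRCm38.p6) and gene identifiers, and no coordinates of that build were used. The rule for named genes took all variants with a count, the 4 highest replication-dependent genes per type by level, called members, 18 fixed pathway genes and up to 2 called genes per direction and list with at least 100 counts; the text describes a part of them. On simulated counts of 12264 genes, the rule called 99 of 100 genes made 2.5-fold higher, 96 of 100 made 2.5-fold lower and 106 of 12064 unaltered ones. Both simulated libraries were drawn with counting error alone, as the interval assumes, without a length trend or variation between cultures. The result therefore says nothing on false calls in the real libraries. Alternatives were other scalings (DESeq2 1.42.0 for the median of ratios), filters, thresholds, intervals from counts as deposited, an added 1 CPM, the length correction and reduced sets of members. Python 3.11.15, scipy 1.17.1 and matplotlib 3.10.9 were used.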

Additional observations from a re-analysis of the deposited data

How the results depend on the processing

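No paired analysis was possible because each group held 1 library. Counting error is the only error that the intervals cover. Differences between cultures, library preparation, mapping and scaling may add error that they leave out. Scaling to total counts, to the median of ratios and to the upper quartile moved the pooled log2 ratio of the variants from 0.40 to 0.27, 0.35 and 0.46, and total counts moved their median from 0.55 to 0.43. Without the filter 5 replication-dependent genes were higher instead of 2, but the number of all genes called in that setting is not given here. With a filter at 10 CPM 0 were higher, because all 4 measured ones have a mean below it, as has H2az2. The variants' median was then 0.40, and 1162 of all genes were higher and 1372 lower instead of 1987 and 2305. At a 2-fold threshold 1 replication-dependent gene and 0 variants were higher, and 511 of all genes were higher and 1059 lower. After the length correction 1 gene of each class was higher, and the variants' median was 0.32. Without members that overlap other genes, 0 replication-dependent genes were higher. The pooled variant value was 0.55 without Macroh2a1, the variant with the most counts, against 0.75 for the whole replication-dependent class. It was 0.25 in variants with unique sequence, a set chosen after seeing the data. The class difference of medians was 0.20, and it was -0.04 after the length correction, -0.03 without overlapping members and -0.01 with 1 CPM added. The pooled replication-dependent log2 ratio was 0.81 without H1f2, H2ac19 and H2ac10, a choice made after seeing the data. Of the other genes, Ptprc, a macrophage marker, stood at -0.64 and at 0.27 after the length correction.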
